A study of Mus musculus with 26 samples.

Results

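The insulin-like growth factor (IGF) signalling genes described here are 9 genes chosen by symbol: Igf1, Igf2, Igf1r, Igf2r, Igfbp2, Igfbp3, Igfbp4, Igfbp5 and Irs2. They are 9 of 30406 genes listed in all 26 libraries of the series. They were read in 18 libraries of sorted microglia and in 8 libraries of cortical nuclei, all from the mouse somatosensory cortex or, in embryos, the region that becomes it. Pregnant dams received poly(I:C), a double-stranded RNA made to mimic a viral infection, at E12.5 to cause maternal immune activation (MIA), or saline. All mice were of a C57Bl/6N background. Microglia came from wild-type animals, were sorted on Cd11b, Cx3cr1 and Cd45, and were collected at the stages labelled E13, E15 and P14, which the study calls E13.5, E15.5 and P14. There were 3 saline and 3 MIA libraries at E13, 3 and 3 at E15, and 4 and 2 at P14, where replicate 3 of the saline group was split into a female and a male library. Embryonic microglia libraries pooled several embryos. The nuclei came from male embryos at E15.5, either wild type (WT) or lacking Csf1r, the receptor that microglia need to develop, with 2 libraries in each of the 4 combinations of genotype and treatment. The deletion is constitutive, so every Csf1r-expressing cell of the embryo lacked the receptor.

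IGF1 and IGF2 are secreted growth factors that bind the receptor tyrosine kinase IGF1R, which passes the signal through adaptors such as IRS2 to the PI3K and AKT kinases. IGF2R, also the mannose 6-phosphate receptor, takes up IGF2 and sends it to lysosomes. The IGF-binding proteins hold the ligands outside the cell and change how much of them reaches the receptor. In the developing brain the pathway is known for its part in progenitor division, neuronal survival and growth, and microglia and the vasculature with its coverings are known sources of the ligands.

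The promoters of Igf1r and Irs2 are shown because these are the members whose transcripts were higher at P14 than at E15 in saline microglia, against 5 members that were lower. Each window is the 250 bases before the gene's start in RefSeq on GRCm38.p6, printed 5′ to 3′ on the gene's own strand, with each GC box (GGGCGG or its reverse complement CCGCCC) in capitals. The Igf1r window lies at chr7:67952007-67952256 on the plus strand and the Irs2 window at chr8:11008930-11009179 on the minus strand.
Igf1r: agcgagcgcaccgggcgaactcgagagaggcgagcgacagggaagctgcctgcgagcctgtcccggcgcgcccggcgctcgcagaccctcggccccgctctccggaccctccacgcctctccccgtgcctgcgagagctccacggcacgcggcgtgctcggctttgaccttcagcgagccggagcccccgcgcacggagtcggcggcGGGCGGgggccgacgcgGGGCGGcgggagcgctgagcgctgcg
Irs2: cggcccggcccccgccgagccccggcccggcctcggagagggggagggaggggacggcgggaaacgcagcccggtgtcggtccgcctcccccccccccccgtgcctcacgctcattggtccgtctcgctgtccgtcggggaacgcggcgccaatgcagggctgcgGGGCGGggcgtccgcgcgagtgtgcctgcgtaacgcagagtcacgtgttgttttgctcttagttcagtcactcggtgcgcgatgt

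The Igf1r window held 2 GC boxes and the Irs2 window 1, at a GC content of 77.6% and 72.8%. Of 32851 promoters of this length, 32.7% held a GC box. Among members that were lower at P14, the windows of Igf1, Igfbp3 and Igfbp4 held 0, that of Igf2r held 3, and Igfbp2 had a window with 3 and a second with 0. The window of Igfbp5 held 0 and the 4 windows of Igf2 held 0 to 2. The forkhead motif GTAAACA, or TGTTTAC on the other strand, was in 3.17% of promoters and in 0 of the members' windows. These matches describe letters and not bound sites.

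Levels are given in CPM, a gene's unique molecular identifiers (UMIs, 1 for each captured transcript) per 1000000 UMIs of the cells summed. Before any comparison of levels, some libraries stood apart. After filters the microglia libraries held 266 to 5479 cells and 5984070 to 95855490 UMIs, and the nuclei libraries 4386 to 5891 nuclei and 9120287 to 16408741 UMIs. Barcodes were shared most by the libraries with the fewest cells, E13 MIA replicates 1 and 2. Replicate 1 shared 133 of its 280 barcodes (47.5%) with P14 MIA replicate 1, 107 (38.2%) with P14 saline replicate 1 and 67 (23.9%) with E13 saline replicate 1. Replicate 2 shared 258 of its 375 barcodes (68.8%) with the P14 saline female library, 239 (63.7%) with the male one and 230 (61.3%) with E15 MIA replicate 3, and each shared barcode was kept only in the library where it had more UMIs. E15 saline replicate 1 held 29.4% dividing cells against 5.55% to 7.83% in the other E15 libraries. The P14 saline female and male libraries held 18.6% and 13.5% Ms4a7-positive or border macrophage-like cells, against 5.61% to 7.48% in the other P14 libraries. Among the nuclei, Csf1r read 1.91 and 0.98 CPM in the libraries labelled WT saline, 1.34 and 0 in WT MIA, 0.297 and 1.10 in Csf1r-null saline, and 0.143 and 0.098 in Csf1r-null MIA. WT MIA replicate 2 thus had no Csf1r UMI, 0 microglia nuclei and 8 of 12 microglia markers at 0, whereas Csf1r-null saline replicate 2 had 7 microglia nuclei and 0 of 12 markers at 0. These libraries went against their labels, so genotypes below are those on the labels, and results are also given without both. The library labelled WT saline replicate 1 held 84.9% of 862 ventral striatal-type nuclei.

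Igf1, the ligand that microglia release, was the member with the clearest course in the sorted cells: it was several times lower at P14 than in embryos. At E13 it was 64.8, 32.3 and 42.8 CPM in saline libraries and 76.3, 35.1 and 43.8 in MIA libraries. At E15 the values were 39.8, 78.8 and 53.7 in saline and 136, 59.7 and 59.7 in MIA. At P14 they were 6.405, 8.50, 11.8 in the female and 11.7 in the male saline library, and 10.4 and 7.82 in MIA. Every P14 library lay below every embryonic library, while saline and MIA overlapped at each stage. In saline libraries Igf1 fell from E15 to P14 by 2.83 on the log2 scale (SE 0.36; edgeR quasi-likelihood test, adjusted p = 7.05e-06), and in MIA libraries it fell by 3.48 (SE 0.49; edgeR adjusted p = 3.79e-05). The differences of E15 from E13 were 0.33 (SE 0.37; edgeR adjusted p = 0.550) in saline and 0.80 (SE 0.37; edgeR adjusted p = 0.118) in MIA libraries. A sum over all cells of a library does not tell fewer cells of a type from less RNA per cell. Igf1 was therefore also read within the substates described further on, which were clustered separately in embryos and at P14. Within P2ry12-high-like cells it was 26.3 to 53.1 CPM over the 6 E15 libraries and 5.85 to 10.3 over the 6 P14 libraries, and within Ms4a7-positive or border macrophage-like cells 110 to 204 and 6.62 to 12.6. E15 and P14 did not overlap in either of these substates. They did overlap in dividing-like cells, 13.4 to 83.2 and 0 to 63.4 CPM, and in interferon-responsive-like cells, 0 to 43.4 and 1.63 to 12.8. Dividing-like cells at P14 numbered 4 to 30 per library, and the 63.4 CPM rests on 2 UMIs in 4 cells of MIA replicate 2. The E15 value of 0 rests on 20 interferon-responsive-like cells of MIA replicate 3. At E13, P2ry12-high-like cells ran from 0 to 19.8 CPM, on 4 to 143 cells per library, overlapping P14 and below E15. Ms4a7-positive or border macrophage-like cells ran from 48.0 to 181 at E13, above P14.

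Across all genes, 50.7% of 14152 tested were called (adjusted p under 0.05) between E15 and P14 in saline libraries, 24.6% higher and 26% lower, and 36.4% in MIA libraries, 17.8% higher and 18.6% lower. Against that background, 7 of the 8 members tested were called in saline and 5 of 8 in MIA libraries. These counts were 4 without E15 saline replicate 1, and 2 without P14 MIA replicate 1 or 2. Between E13 and E15, 23.6% of all genes were called in saline (13% higher, 10.5% lower) and 29.2% in MIA libraries (14.7% higher, 14.5% lower), and 2 of 8 members in each, or 1 to 3 with a library left out. Igf2 did not pass the filter on low counts. The share of all genes whose libraries do not overlap between stages is not given here. Non-overlap between stages, stated here for several members, therefore has no background. No library holds cells of more than 1 stage, so stage and preparation cannot be told apart.

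Igf2, the other ligand, was nearly unread in sorted microglia, with 0 to 2 UMIs per library after filters. All 18 microglia libraries use the shorter of 2 gene lists, in which another model, Gm49394, spans Igf2 on the same strand, and its level in microglia is not interpreted. Among the nuclei, libraries with this list had far fewer Igf2 UMIs than those with the longer one, but they also differed in software version and in the number of vascular nuclei. Their 20 vascular nuclei held 1 Igf2 UMI (20.3 CPM), against 95 UMIs in 39 (980 CPM) with the longer list. The part of each difference was not tested.

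The receptors moved apart. Igf1r rose by 0.59 (SE 0.20; edgeR adjusted p = 0.0224) from E15 to P14 in saline libraries. Its levels there were 17.2, 13.3 and 14.9 CPM at E13, 11.8, 23.5 and 24.1 at E15, and 34.95, 31.8, 36.0 and 37.4 at P14. All 4 P14 values were above all embryonic ones, and E15 saline replicate 1, with many dividing cells, was the lowest library of its stage. Without that library the difference was 0.33 (edgeR adjusted p = 0.121; over 29 alternatives it ran from 0.0102 to 0.121). In MIA libraries Igf1r was 15.46, 17.0 and 13.03 CPM at E13, 17.3, 24.8 and 28.7 at E15, and 27.6 and 40.1 at P14. It rose from E13 to E15 by 0.69 (SE 0.22; edgeR adjusted p = 0.0277), a call lost in 5 fits that left out 1 library each, with adjusted p up to 0.106: E13 MIA replicate 1, 2 or 3, or E15 MIA replicate 2 or 3. The further difference to P14 was 0.30 (SE 0.24; edgeR adjusted p = 0.336). In saline libraries Igf1r differed by 0.40 from E13 to E15 (SE 0.22; edgeR adjusted p = 0.185).

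Igf2r, the clearance receptor, fell in both treatments. It was read at 1.42, 1.33 and 1.06 CPM in E13 saline (29, 44 and 49 UMIs), 0.853, 0.645 and 0.705 at E15 (60, 21 and 27 UMIs), and 0.298, 0.165, 0.183 and 0.0760 at P14 (6, 4, 4 and 2 UMIs). The groups did not overlap between stages. The fall from E15 to P14 was by 2.29 on the log2 scale (SE 0.46; edgeR adjusted p = 0.000595) in saline and by 2.73 (SE 0.63; edgeR adjusted p = 0.00284) in MIA libraries. From E13 to E15 the difference was not called, at −0.74 (SE 0.42; edgeR adjusted p = 0.202) in saline and −1.13 (SE 0.45; edgeR adjusted p = 0.0657) in MIA libraries. The latter was called in 3 of 28 alternatives. MIA libraries went from 1.86, 1.00 and 1.42 CPM at E13 to 0.950, 0.587 and 0.209 at E15 and 0.0811 and 0.132 at P14. The last of these rest on 2 and 4 UMIs. With only the E15 and P14 MIA groups in the model the adjusted p was 0.0548 (0.000442 to 0.0548 over 29 alternatives).

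**Figure D1:**
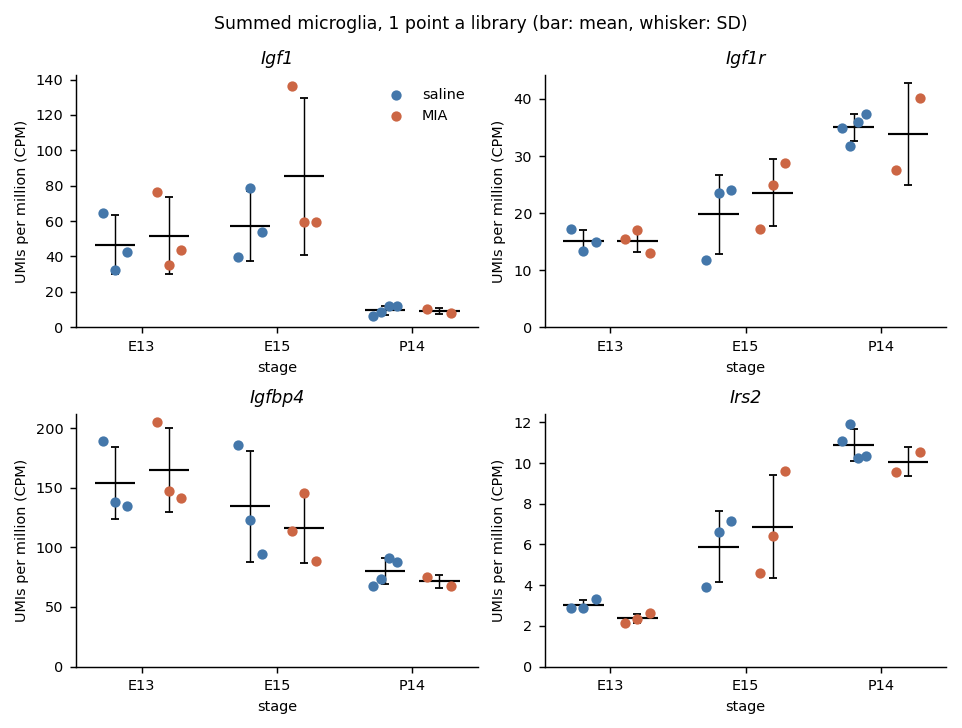
Levels of Igf1, Igf1r, Igfbp4 and Irs2 in the sorted microglia libraries, in CPM, by stage and treatment, with 1 point per library, the mean as a bar and the SD as a whisker. The P14 points for Igf1 lie between 6.405 and 11.8 CPM, below every embryonic point, while those for Irs2 lie between 9.57 and 11.9 CPM, near or above the highest E15 points.

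Irs2, the adaptor that carries the receptor's signal to PI3K, rose through the stages. In saline libraries it was 2.89, 2.87 and 3.30 CPM at E13, 3.89, 6.63 and 7.16 at E15, and 11.1, 11.9, 10.2 and 10.3 at P14. No library of a later stage overlapped an earlier one. The rise was 0.96 (SE 0.23; edgeR adjusted p = 0.00636) from E13 to E15 and 0.65 (SE 0.21; edgeR adjusted p = 0.0144) from E15 to P14. Without E15 saline replicate 1, the lowest of its stage, the latter was 0.43 (edgeR adjusted p = 0.0885; 0.00166 to 0.0885 over 29 alternatives). MIA libraries held 2.15, 2.34 and 2.61 CPM at E13, 4.59, 6.42 and 9.62 at E15, and 9.57 and 10.6 at P14. They rose from E13 to E15 by 1.49 (SE 0.25; edgeR adjusted p = 0.000428), and differed by 0.35 (SE 0.24; edgeR adjusted p = 0.273) from E15 to P14.

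Of the binding proteins, Igfbp4 was read most deeply in microglia, and it was lower after birth. It was 189, 138 and 135 CPM in E13 saline, 185, 123 and 94.7 at E15, and 67.9, 73.3, 91.3 and 88.0 at P14. In MIA libraries it was 205, 148 and 141, then 114, 146 and 88.1, then 75.4 and 67.5. Igfbp4 fell from E15 to P14 by 1.01 (SE 0.22; edgeR adjusted p = 0.00122) in saline and by 0.93 (SE 0.28; edgeR adjusted p = 0.0138) in MIA libraries. The MIA call was lost without E15 MIA replicate 2 (adjusted p = 0.0595) or without P14 MIA replicate 1 or 2 (0.0591 and 0.120), in a range from 0.00296 to 0.120 over 29 alternatives.

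Igfbp2 and Igfbp3 were rare in microglia and changed with markers of neurons. Igfbp2 read 0.832, 0.483 and 0.367 CPM in E13 saline, 3.27, 1.41 and 0.940 at E15, and 0.0993, 0.206, 0.320 and 0.418 at P14. In MIA libraries it read 1.14, 1.17 and 1.53 at E13, 4.50, 2.05 and 0.279 at E15, and 0.406 and 0.464 at P14. It fell from E15 to P14 by 3.09 (SE 0.67; edgeR adjusted p = 0.00103) in saline and by 2.71 (SE 0.81; edgeR adjusted p = 0.0149) in MIA libraries, while its difference of 1.85 between E13 and E15 in saline libraries missed the threshold (SE 0.67; edgeR adjusted p = 0.0532). It passed in 6 of 28 alternatives, with the replicate block among them (0.0478), in a range from 0.0116 to 0.228. The MIA call for E15 to P14 was lost without E15 MIA replicate 1 (a fall by 1.70, adjusted p = 0.0886), without P14 MIA replicate 1 or 2 (0.0989 and 0.0955), and with only the 2 groups in the model (0.0998).

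Igfbp3 had 1, 0 and 3 UMIs in E13 saline libraries, 37, 10 and 9 at E15 and 2, 0, 1 and 0 at P14. In MIA libraries it had 0, 3 and 11, then 36, 14 and 0, then 0 and 0. Pooled over libraries, E15 saline exceeded P14 saline by a ratio of 12.2 (95% exact interval 3.98 to 61.1, counting error only), and P14 MIA libraries were at least 9.87-fold lower than E15 MIA, with 3 UMIs over the group as the floor. Before shared barcodes, doublets and clusters of other cells were removed, the ratio was 27.5 (10.6 to 102) in saline and at least 48.9 in MIA libraries. The model called Igfbp3 higher at E15 than E13 in saline libraries (edgeR adjusted p = 0.0453), and 11 of 27 alternatives kept this call, with adjusted p from 0.0176 to 0.147 over all of them. It called the gene lower at P14 than at E15 in saline (edgeR adjusted p = 0.0109; 0.0501 without E15 saline replicate 1) and in MIA libraries (edgeR adjusted p = 0.00976; 0.0739 with only the 2 groups, and 0.0618 and 0.0812 without P14 MIA replicate 1 or 2).

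The summed level of 7 neuron markers, all detected in each microglia library, was 42.2, 29.8 and 36.0 CPM in E13 saline, 37.2, 49.6 and 53.2 in E13 MIA, 211, 97.6 and 76.7 in E15 saline and 255, 131 and 32.0 in E15 MIA, and it was 7.76 to 18.7 at P14. At E15 the libraries ranked alike by this sum and by Igfbp2: E15 MIA replicate 1 was highest in both and E15 MIA replicate 3 lowest in both. The part of neuronal RNA in the Igfbp2 and Igfbp3 values was not tested.

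Igfbp5 was near the limit of detection in microglia at 0 to 0.950 CPM per library. It was not called in any comparison, with a difference of −0.11 (SE 0.69; edgeR adjusted p = 0.907) between P14 and E15 in saline libraries.

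**Figure D2:**
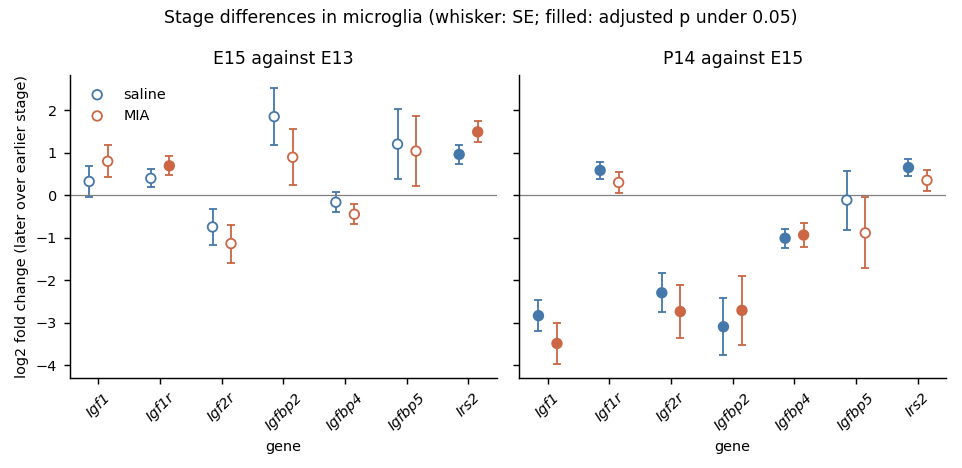
Fitted log2 differences between stages for 7 members (Igf2 and Igfbp3 are not drawn), in saline and in MIA microglia, with bars of 1 standard error and filled points for adjusted p under 0.05. Igf1 sits at −2.83 and −3.48 from E15 to P14, and Irs2 at 0.96 and 1.49 from E13 to E15.

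The change between stages was also compared between treatments. The P14 to E15 difference of Igf1 was lower by 0.65 in MIA than in saline libraries (SE 0.56). No member, and 0 of 14152 genes, was called for such a difference by edgeR from E13 to E15 or from E15 to P14, with 110 and 165 genes at an unadjusted p under 0.05.

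The remaining pathway was read through a list of 47 further genes, chosen with earlier results of these data known: ligands, receptors, adaptors, binding proteins, proteases that cut them, PI3K and AKT components, and RNA-binding proteins of the Igf2 message. From E15 to P14 in saline libraries, 12 of 34 tested were higher and 9 lower, where 24.6% and 26% of all genes were (median difference −0.07, against 0.02 over all genes). From E13 to E15, 4 were higher and 2 lower, against 13% and 10.5% of all genes (median 0.04, and 0.04 over all genes). Those with the largest rises to P14 were Htra1, a serine protease that can cut binding proteins, by 3.06 (SE 0.66; 0.0522 to 0.123 CPM at E15 and 0.494 to 0.894 at P14), Gab1, a docking protein beside the receptor, by 1.44 (SE 0.21; 7.87 to 15.9 and 32.3 to 40.5 CPM), and Pik3r1, a regulatory subunit of PI3K, by 1.27 (SE 0.18; 70.7 to 129 and 263 to 335 CPM). Their edgeR adjusted p-values were 0.000982, 2.96e-05 and 2.17e-05.

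The largest falls were of genes with 0 UMIs in all 4 P14 saline libraries after filters. Igf2bp1, which binds the Igf2 message, read 13.6 to 25.2 CPM at E13 and 2.56 to 5.39 at E15, so that its P14 level was at least 123-fold below that of E15, with 3 UMIs over the group as the floor. Igfbpl1, a binding protein-like gene, read 4.51 to 18.3 CPM at E15 and was at least 355-fold lower at P14, while the summed neuron markers went from 76.7 to 211 CPM at E15 to 7.76 to 18.7 at P14. Before cleaning, which removed clusters of other cells, Igfbpl1 read 36.3 CPM in pooled E15 saline and 154 in pooled E15 MIA libraries, and the part of neuronal RNA in its values was not tested. H19, the imprinted neighbour of Igf2, read 0.983 to 1.61 CPM and was at least 41.1-fold lower. These values of 0 hold after cleaning. Before shared barcodes, doublets and clusters of other cells were removed, the P14 saline libraries held 78 UMIs of Igf2bp1, 23 of Igfbpl1 and 9 of H19, and E15 exceeded P14 by ratios of 6.62 (95% exact interval 5.24 to 8.46), 163 (108 to 257) and 16.5 (8.54 to 36.6). Igf2bp1 had already fallen from E13 to E15, by 2.35 (SE 0.34; edgeR adjusted p = 0.000609). Mtor, the kinase downstream of AKT, fell by 0.39 over the same interval (SE 0.13; edgeR adjusted p = 0.0348).

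Igfbp7, a binding protein of low affinity, rose by 1.86 from E13 to E15 in saline (SE 0.59; edgeR adjusted p = 0.0316), on 12 and 68 UMIs in all. Igf2bp2 rose by 1.02 (SE 0.24; edgeR adjusted p = 0.00644). Insr, the insulin receptor, rose by 0.63 (SE 0.21; edgeR adjusted p = 0.0377), from 11.8 to 15.1 CPM at E13 to 13.5 to 26.9 at E15. In MIA libraries, 4 of 34 were higher and 4 lower from E13 to E15, where 14.7% and 14.5% of all genes were, and 9 higher and 8 lower from E15 to P14, where 17.8% and 18.6% were. The largest among them from E13 to E15 were rises of Igf2bp2 by 1.21, Insr by 0.71 and Gsk3b, a kinase that AKT restrains, by 0.50, and falls of Igf2bp1 by 2.80, of H19 by 1.52 and of Inppl1, a lipid phosphatase, by 0.57. From E15 to P14 they were rises of Htra1 by 3.49, Gab1 by 1.32 and Pik3r1 by 1.17, and falls of Igf2bp1, H19 and Igfbpl1. Igf2bp1 and H19 had 0 UMIs in both P14 MIA libraries, at least 54.7-fold and 17.8-fold lower than at E15, and Igfbpl1 had 2. Before cleaning they had 10 and 1, with ratios of 34.1 (18.4 to 71.5) and 77.6 (13.7 to 3090).

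Over the 18 libraries, the genes whose log levels followed a member's most closely were Nceh1 (r = 0.96), Gm1673 and Fam213a for Igf1, Insr (r = 0.98), Peli1 and Fnip1 for Igf1r, Pxdc1 (r = 0.95), Mpp1 and Serpinb6a for Igfbp4, and Ephb3 (r = 0.98), Peli2 and Siglech for Irs2. These correlations describe libraries that share their stages.

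In microglia no member passed the test for a difference between MIA and saline at any stage. Of all genes, 0% of 12396 were called at E13, 0% of 13123 at E15 and 0% of 12882 at P14 by edgeR, with 123, 79 and 482 at an unadjusted p under 0.05. Accordingly 0 of 6, 0 of 8 and 0 of 6 members tested were called, and DESeq2 also called 0. For Igf1 the differences of MIA from saline were 0.15 (SE 0.30), 0.61 (SE 0.40) and −0.05 (SE 0.23), with edgeR adjusted p of 1.00, 1.00 and 0.983. The E15 value leant on MIA replicate 1 at 136 CPM, both other libraries being at 59.7. Groups did not overlap for 2 of the 6 members tested at E13, where they did not for 3.88% of 12396 genes, and for no member tested at E15 or P14, where they did not for 3.44% and 11.3%. Irs2 was 2.87 to 3.30 CPM in saline and 2.15 to 2.61 in MIA libraries, a difference of −0.32 (SE 0.22; unadjusted p = 0.169 by edgeR, adjusted p = 1.00). Igfbp2 was 0.367 to 0.832 CPM against 1.14 to 1.53, a difference of 1.33 (SE 0.39; unadjusted p = 0.00656 by edgeR, adjusted p = 1.00), with neuron markers at 29.8 to 42.2 CPM in saline and 37.2 to 53.2 in MIA libraries. Igf1r at E15 was higher in MIA in 3 of 3 same-numbered pairs of libraries, with a difference of 0.31 in the fit with the pair as a block (SE 0.13; edgeR unadjusted p = 0.0505, adjusted p = 0.946). No other member had the same direction in all 3 pairs, and the share of all genes that did is not given here. The pathway list gave 0 of 32, 0 of 33 and 0 of 28 genes.

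Within stages, Igf1 differed widely between microglial substates. These were clusters made without the 9 members and named from marker lists. They serve as a description, since genes that vary with a member took part in the clustering, and Igf1 stood among the leading genes of the Spp1-high cluster. At E15 Igf1 had a median of 160 CPM over 6 libraries (135 to 283; 1719 cells) in Spp1-high-like cells, which express Spp1, Ccl3 and Ccl4, and 144 (110 to 204) in Ms4a7-positive or border macrophage-like cells. It was 31.7 (26.3 to 53.1) in P2ry12-high-like cells, the most numerous state. That class joined 5 clusters with medians of 17.3 to 73.5: the highest was in 2418 cells led by Crybb1 and Ccl6, and the lowest in 610 cells whose leading genes were of S phase, with no P2ry12-high marker among them. Igf1 was 24.9 (13.4 to 83.2) in dividing-like cells and 14.3 (0 to 43.4) in interferon-responsive-like cells. Cells of clusters without a name had 156 (54.5 to 182; 2267 cells), and held 12.85% of the Igf1 UMIs with 8.125% of all UMIs. Spp1-high-like cells exceeded P2ry12-high-like cells in 6 of 6 libraries and the Ms4a7-positive in 5 of 6. They were 8.60% of the cells and 11.9% of the UMIs and held 36.7% of the Igf1 UMIs, whereas P2ry12-high-like cells had 50.9% of the UMIs and 24.9% of those of Igf1. This order rests on E15 MIA replicate 1: without it, Spp1-high-like cells had 8.07% of the UMIs and 23.8% of those of Igf1, and P2ry12-high-like cells 51.2% and 28.3%. In single libraries the Spp1-high-like share of Igf1 UMIs ran from 6.68% to 58.8%, and in each it was above their share of all UMIs.

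The high E15 MIA replicate 1 library was highest in 5 of 5 named substates, at 283 CPM in Spp1-high-like, 204 in Ms4a7-positive, 53.1 in P2ry12-high-like, 83.2 in dividing-like and 43.4 in interferon-responsive-like cells. It also had the largest share of Spp1-high-like cells, 18.5% of those left after cleaning, against 1.37% to 10.8% in the other E15 libraries, with 1.37% in saline replicate 1.

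At E13 the leading named state with many cells was the Ms4a7-positive or border macrophage-like, at 69.8 CPM of Igf1 (48.0 to 181). P2ry12-high-like cells, only 4 to 143 per library, were at 14.5 and dividing-like cells at 32.5. The Ms4a7-positive class was above each of these in 6 of 6 libraries. Cells of clusters without a name, 39.85% to 55.7% of a library, were at 34.3 CPM (26.6 to 47.7). The Ms4a7-positive class joined 3 clusters that differed. A cluster led by Ms4a7 and Ms4a6c (663 cells) had 78.9 CPM and one led by Pf4 and Lyve1 (156 cells) had 213. The largest, with 1093 of the 1912 cells, had 28.03 CPM, below the dividing-like cells, and its leading genes held the S phase genes Ung, Cdc6 and Tipin beside Ms4a7. Only 62 E13 cells were Spp1-high-like, 1 to 36 per library, with Igf1 between 15.9 and 318 CPM. At P14 Igf1 was 30.6 CPM (17.3 to 33.7) in Ccl3 and Ccl4-high-like cells and 7.24 (5.85 to 10.3) in P2ry12-high-like cells, with the former above in 6 of 6 libraries. It was 10.4 in Ms4a7-positive cells and 12.4 (0 to 63.4) in 113 dividing-like cells. Ccl3 and Ccl4-high-like cells held 25.6% of the P14 Igf1 UMIs with 8.57% of all UMIs. The leading genes of this state also held Atf3 and Egr1, transcription factors induced by stimulation.

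Igfbp4 was low in the Igf1-rich Spp1-high-like and Ccl3 and Ccl4-high-like cells, while Ms4a7-positive cells at E15 had high medians of both genes. In Spp1-high-like cells at E15 it was 52.8 CPM (43.9 to 84.7), below P2ry12-high-like cells at 135 (68.8 in the Crybb1 and Ccl6 cluster and 99.8 to 179 in the other 4), dividing-like cells at 154, interferon-responsive-like cells at 134 and Ms4a7-positive cells at 190 (124 to 284). Within this class, 60 cells of the Pf4 and Lyve1 cluster, read in 4 libraries, had 932 CPM and 24.9% of the Igfbp4 UMIs, the Ms4a7 and Ms4a6c cluster 171 and the cluster with S phase genes 102. At P14 Ccl3 and Ccl4-high-like cells had 45.1 (34.7 to 56.4), below P2ry12-high-like cells at 71.9 (65.9 to 88.1), with no overlap between these ranges. Dividing-like cells had 145 (93.8 to 273) and Ms4a7-positive cells 92.9. At E13, Ms4a7-positive cells had 187 (148 to 384) and dividing-like cells 135, but of the 3 clusters in that class the Pf4 and Lyve1 cluster of 156 cells had 780, the Ms4a7 and Ms4a6c cluster 158 and the largest 102. At P14 the lowest median of Igf1r was in dividing-like cells, at 11.3 CPM (0 to 17.1) against 37.6 in P2ry12-high-like cells. At E13 and E15 it was in interferon-responsive-like cells, at 10.0 CPM (5.94 to 13.2) at E15 and at 6.29 CPM at E13, where 82 cells ranged from 0 to 29.995 over 6 libraries and overlapped the other substates. Irs2 was 11.7 (10.6 to 13.1) in P14 P2ry12-high-like cells and 7.14 (5.00 to 10.9) in those of E15, ranges that overlapped. Igf1r in P2ry12-high-like cells was 24.3 (13.1 to 28.3) at E15 and 37.6 (26.2 to 42.0) at P14, which also overlapped. In dividing-like cells Igf1r was 13.9 (8.90 to 25.8) at E15, above its P14 median.

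**Figure D3:**
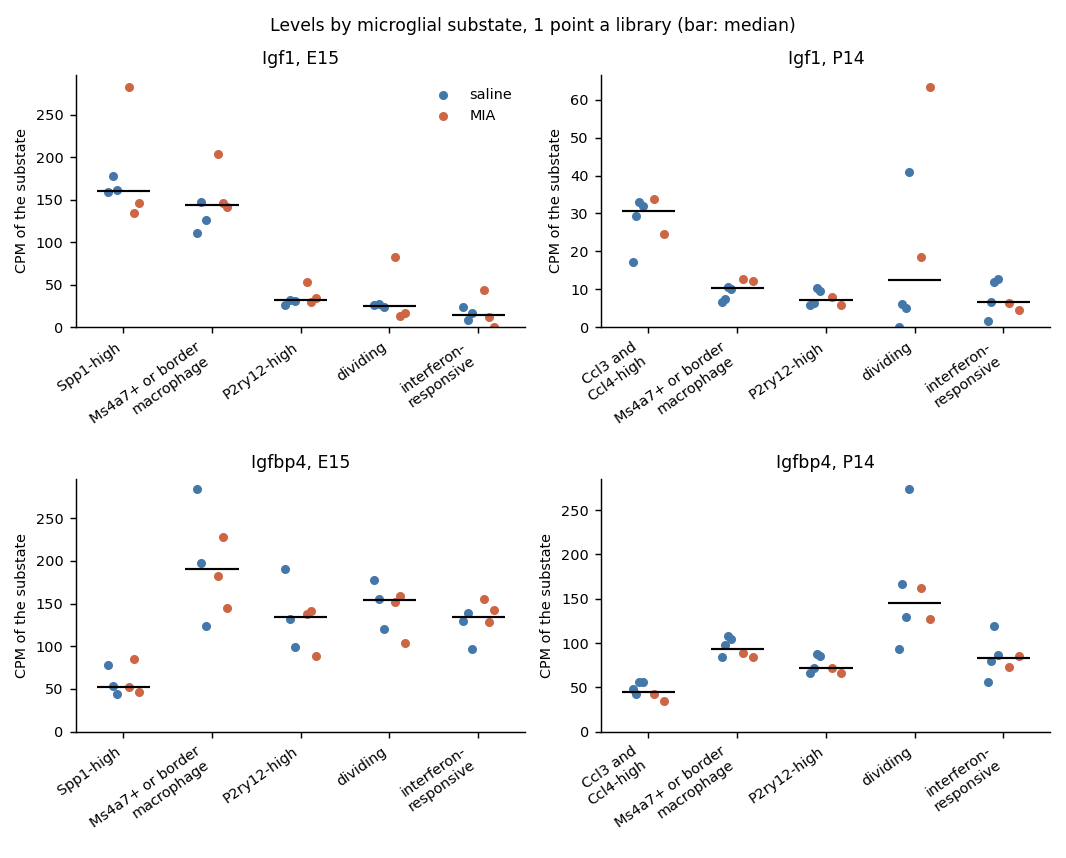
Levels of Igf1 and Igfbp4 by microglial substate at E15 and P14, in CPM, with 1 point per library and the median marked. At E15 Igf1 is between 135 and 283 CPM in Spp1-high-like cells, and Igfbp4 is lowest there, at 43.9 to 84.7 CPM.

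In the cortical nuclei the members divided by cell class. Nuclei were clustered without the members and named from markers of apical and intermediate progenitors, migrating neurons, projection neurons, interneurons and other types. The named classes hold 7405 migrating neuron-like, 8507 callosal, 6958 corticothalamic and 4322 subcerebral projection neuron-like nuclei, 2957 apical, 2885 dividing and 2771 intermediate progenitor-like nuclei, and 2248 of the interneuron type of the medial ganglionic eminence (MGE). Levels are the median CPM over 8 libraries with the range, and are a description, since the clusters were built on the same nuclei. As single nuclei hold unspliced RNA and differ in capture from whole cells, they are not compared with the microglia.

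Igf1 was read in nuclei of MGE-type interneurons, at 6.05 CPM (2.28 to 19.8; 31 UMIs in 1.01% of nuclei) and in 8 of 8 libraries. Its median was 0 in each of the other 7 classes of over 200 nuclei that were tested, where only the corticothalamic class of 1 library had any, at 0.220 CPM. In barcodes of at most 100 UMIs, which hold free RNA, Igf1 had a median of 0.150 CPM (0 to 1.11 over 4 libraries). In ventral striatal-type nuclei it was 1.30 CPM in the library with most of them, WT saline replicate 1 (2 UMIs in 732 nuclei; 95% exact interval 0.157 to 4.68), and 71.5 CPM in the 130 nuclei of all other libraries (15 UMIs; 40.0 to 118), so the pooled value of 9.70 was set by 1 library. The 31 microglia nuclei had 2 Igf1 UMIs.

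Igf2 was found in vascular cells. In the replicate 2 libraries, made with a newer gene list, all nuclei together held 111 UMIs of Igf2. Of these, 95 came from 39 pericyte and endothelial-like nuclei, 26 of them with at least 1 UMI, at 980 CPM. The replicate 1 libraries had 4 Igf2 UMIs in all. Their shorter list also has Gm49394, a model on the same strand that spans Igf2 (chr7:142650769-142669942 over chr7:142650766-142666816, GRCm38), so Igf2 is not compared between replicates. Pooled over all libraries, the 59 pericyte and endothelial-like nuclei also held Igf2r at 355 CPM (52 UMIs; 95% exact interval 265 to 466.2), Igfbp4 at 246, Igfbp2 at 253 and Igf1r at 226.

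The receptors were broadly expressed. Igf1r was 281 CPM (197 to 357) in corticothalamic projection neuron-like and 245 (142 to 334) in MGE-type nuclei, the former higher in 7 of 8 libraries, and 133 to 176 in the other 6 classes. The 4 replicate 1 libraries had a mean of 324 ± 24.3 CPM (SD, n = 4) in the corticothalamic class and the 4 replicate 2 libraries 217 ± 29.5 (SD, n = 4), a gap that goes with the 2 software versions that made the files. Igf2r was highest in intermediate progenitor-like nuclei, 68.1 CPM (42.7 to 93.8), above each of the other 7 tested classes in 8 of 8 libraries, whose medians were 28.6 to 45.4, and below the 59 vascular nuclei above.

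Of the 4 binding proteins, Igfbp2 and Igfbp5 had their highest median in apical progenitors, Igfbp3 in corticothalamic neurons and Igfbp4 in MGE-type interneurons. Igfbp5 was 248 CPM (208 to 343) in apical progenitors, 124 (97.6 to 188) in dividing progenitors, 19.1 (6.86 to 32.7) in intermediate progenitors and at most 3.71 in neuron classes. Its values in the apical progenitors were 265 and 232 in WT saline, 304 and 208 in WT MIA, 343 and 232 in Csf1r-null saline and 305 and 212 in Csf1r-null MIA. The replicates differed by more than the groups.

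Igfbp3 was in neurons projecting below the cortex. It was 145 CPM (85.3 to 183) in corticothalamic and 112 (93.1 to 189) in subcerebral projection neuron-like nuclei, a pair of classes whose ranges overlapped, and 12.9 in callosal neurons. Other classes had medians of at most 6.67. In corticothalamic nuclei it was 165 and 158 in WT saline, 121 and 183 in WT MIA, 165 and 85.3 in Csf1r-null saline and 133 and 102 in Csf1r-null MIA. Saline and MIA values overlapped within each genotype.

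Igfbp4 was 165 CPM (126 to 236) in MGE-type interneurons, then 60.8 (44.5 to 79.1) in apical and 44.8 in dividing progenitors, down to 13.7 in corticothalamic neurons. The MGE-type range did not overlap with any of the other tested classes. Igfbp2 was the broadest. It was 349 CPM (242 to 540) in apical and 343 (295 to 492) in intermediate progenitors, 240 to 292 in dividing progenitors and in the 4 neuron classes, and 127 (103 to 164) in MGE-type nuclei. Irs2 was 48.5 (38.1 to 79.1) in apical and 38.5 in dividing progenitors, 26.6 in migrating neurons, 26.5 in callosal neurons and 11.4 in intermediate progenitors.

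**Figure D4:**
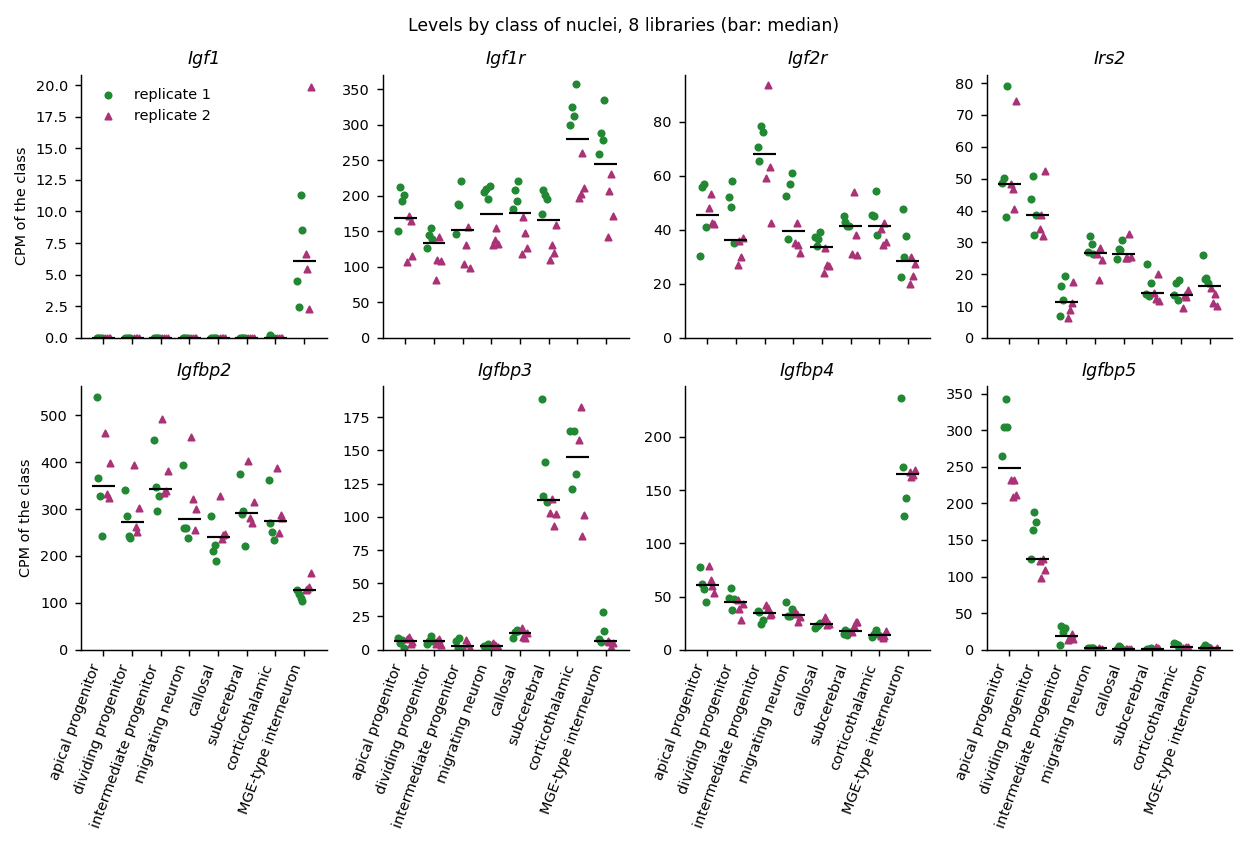
Levels of 8 members (all but Igf2) by class of nuclei, in CPM, with 1 point per library and the median marked. Igfbp5 lies between 208 and 343 CPM in apical progenitors and Igfbp3 between 85.3 and 183 CPM in corticothalamic neurons.

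Over the 8 tested classes the genes whose log levels followed a member's most closely were Grm8 (r = 1.00), Slc4a2 and Slco1c1 for Igfbp5, Adrb1 (r = 0.99), Brdt and Gsg1l for Igfbp3, Vstm2a (r = 0.99), Id3 and Trim62 for Igfbp4, Zmat5 (r = 0.99), Nabp2 and B230369F24Rik for Igf2r, Catsperd (r = 0.98), Angel1 and Plxna1 for Igf1r, Spcs3 (r = 0.96), Zdhhc3 and Tmem38a for Irs2, Spata1, Mmd2 and Dhrs1 for Igfbp2, and Gm48427, Dlx6os1 and Nxph2 for Igf1. Each r is over 8 points that share libraries, and the genes were picked as the closest of 12312.

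In nuclei no member passed the test for MIA, or for the genotype on the labels, in any class. For each of 4 comparisons, 46 of 72 pairs of member and class passed the filter on low counts and 0 were called by edgeR, against 0% of 8103 to 11107 genes per class. The adjusted p ran from 0.517 to 1.00 for MIA in WT, 1.00 in Csf1r-null, 0.986 to 1.00 for the difference between them and 0.734 to 1.00 for genotype. The lowest adjusted p with the replicate number as a block was 0.0747, 0.998, 0.577 and 0.231 in that order. Without WT MIA replicate 2 and Csf1r-null saline replicate 2 it was 0.790, 1.00, 0.918 and 0.997, and without WT saline replicate 1 it was 0.429, 1.00, 0.864 and 0.663. With the block, 1.75% of 9262 genes were called for MIA in WT apical progenitors, 2.35% of 9813 in dividing progenitors and 2.04% of 8103 in MGE-type interneurons. In each other class at most 0.027% were called.

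Igfbp2 nevertheless had the same direction in many classes. In WT libraries the differences were −0.59 (SE 0.24; edgeR adjusted p = 0.517) in apical progenitors, −0.56 in corticothalamic and in migrating neurons, −0.51 in dividing progenitors and −0.50 in intermediate progenitors. It was lower in MIA than saline within both replicates in 7 of 8 classes in WT and in 1 of 8 in Csf1r-null libraries. In each genotype replicate 2 includes a library whose markers went against its label. In replicate 1 alone Igfbp2 was lower in MIA in 8 of 8 classes in WT and 7 of 8 in Csf1r-null libraries. However, the WT saline library of replicate 1 held most of the ventral striatal-type nuclei. Its MGE-type interneuron markers summed to 1104 CPM, against 356 to 510 in the other libraries, and its apical progenitor markers to 1477, against 782 to 1129. The apical progenitors held 540 and 463 CPM in WT saline, 366 and 332 in WT MIA, 328 and 323 in Csf1r-null saline and 242 and 397 in Csf1r-null MIA. Over whole libraries Igfbp2 was 310 and 384 in WT saline, 260 and 274 in WT MIA, 250 and 262 in Csf1r-null saline and 219 and 289 in Csf1r-null MIA, so the WT saline libraries were the highest ones. Barcodes of at most 100 UMIs held 455 CPM of Igfbp2 in WT saline, 542 in WT MIA, 502 in Csf1r-null saline and 532 in Csf1r-null MIA, each read in the replicate 1 library, and their part in the class values was not tested. Classes share libraries and are not independent.

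Igf1r was higher in MIA within both replicates in 8 of 8 classes of WT and 0 of 8 of Csf1r-null libraries, while in replicate 1 alone, without the 2 libraries that went against their labels, it was higher in 8 of 8 and 6 of 8. It had whole-library levels of 200 and 132 CPM in WT saline, 237 and 158 in WT MIA, 220 and 175 in Csf1r-null saline and 250 and 146 in Csf1r-null MIA. The value of 200, the lowest of replicate 1, is from the library with most of the ventral striatal-type nuclei. Over all 46 pairs, the replicates had the same sign in 29 in WT and 22 in Csf1r-null libraries. The smallest unadjusted p was that of Irs2 in apical progenitors of Csf1r-null libraries, 38.1 and 40.4 CPM in saline and 79.1 and 74.5 in MIA. Its difference was 0.95 (SE 0.27; edgeR unadjusted p = 0.0035, adjusted p = 1.00). In WT libraries the same class had 48.7 and 48.2 in saline and 50.1 and 46.7 in MIA. One of the saline libraries of this contrast was Csf1r-null saline replicate 2, whose markers went against its label. Igfbp5 in apical progenitors differed with MIA by −0.03 (SE 0.24) in WT and −0.17 (SE 0.25) in Csf1r-null libraries, and by 0.09 (SE 0.17) with genotype. The pathway list had 22 to 30 genes tested per class and 0 called. Its median difference with MIA ran from 0.0913 to 0.216 over the classes in WT and from −0.078 to 0.0429 in Csf1r-null libraries. The median over all genes of these classes is not given here, so the pathway medians have no background. The share of all genes with the same direction in both replicates was not computed, so the direction counts of Igf1r and Igfbp2 have no background.

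**Figure D5:**
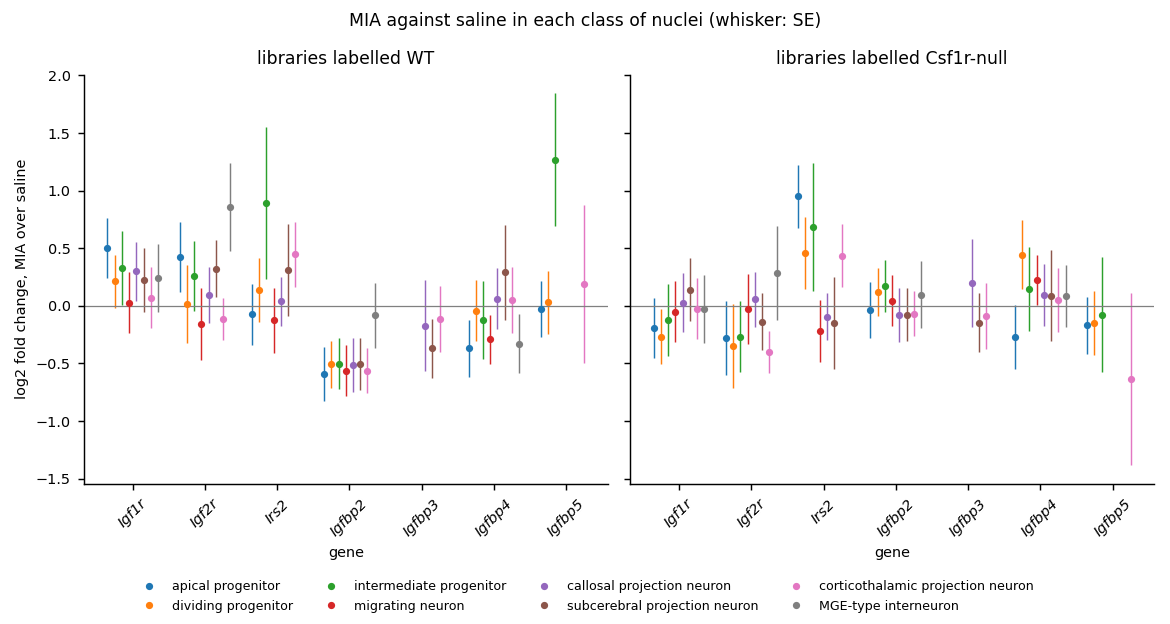
Log2 differences of MIA from saline for the 7 members tested in 8 classes of nuclei, in libraries labelled WT and Csf1r-null, with bars of 1 standard error. None of the 46 pairs in either genotype passed the threshold, and Igfbp2 in WT apical progenitors is at −0.59.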

How the data were processed

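Each of the 26 libraries was a 10x Chromium 3′ v3.1 library, deposited as a matrix of raw UMI counts per gene and barcode that the authors made with Cell Ranger 3.1.0 and mm10 per the labels; the file headers of the replicate 2 nuclei name 6.0.1. These had 32285 genes and filtered barcodes, and the others 31053 genes, with unfiltered barcodes in the replicate 1 nuclei. Whether reads in introns were counted is not given in the sources used here. Reads of this kit carry strand.

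Filters kept nuclei of 500 UMIs and 200 genes or more. Microglia had to have 500 genes, and mitochondrial counts up to 20%. Cells were clustered (scanpy 1.11.5, leidenalg 0.10.2; 2000 variable genes without the members, 30 components, 20 neighbours, resolution 1) and named from markers; doublets (0.8% per 1000 cells) and clusters of other cell types were removed, and barcodes shared between microglia libraries were kept only where they had most UMIs. Counts were summed per library, or per library and class where a class had over 200 nuclei. The ventral striatal-type class of 862 nuclei, 732 of them from WT saline replicate 1, was left out of the tests and of the likeness between genes. edgeR 4.0.16 (quasi-likelihood, TMM, a filter on low counts by group, Benjamini-Hochberg over all genes, threshold 0.05) was the main test; DESeq2 1.42.0 was an alternative. All log2 differences come from these fits, checked on simulated data. Likeness between genes used log2 CPM with a pseudocount of 1 CPM. Intervals are 95% and exact, a count of 0 allows up to 3, and both cover counting error only.

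The members and lists were chosen with earlier results of these data known. Genes named besides the members were up to 3 called pathway genes with the largest change per direction and comparison. The 3 genes whose log levels correlated most with each member's were also named, and a clause names markers from the fixed lists. The labels do not say that each library is a separate animal or litter, so p-values measure only the spread between these libraries. For P14 microglia the study reports as many mice in each treatment as there are libraries, whereas embryonic microglia libraries were pools. The study states that the WT embryos were littermates of the Csf1r-null ones and came from few dams, so nuclei libraries of both genotypes can share a dam, which no fit takes into account. Deviations of same-numbered saline and MIA libraries correlated at r = 0.606, 0.179 and 0.625 at E15, against −0.603 to 0.168 for libraries of unlike number. At E13 the values were 0.315, 0.0567 and 0.398, against −0.476 to 0.19. Each same-numbered value thus exceeded all others at E15, by little for replicate 2, but not at E13. In the nuclei the replicate numbers mark the software version (0.433 to 0.591).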

Additional observations from a re-analysis of the deposited data

Results flagged for a closer look

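For 3 members, barcodes of at most 100 UMIs in the 4 unfiltered nuclei libraries, which no comparison of the members used, held more than the nuclei did. Igfbp2 had a median of 516.9 CPM there (455 to 542) against 255 in nuclei, and was higher in 4 of 4 libraries. Igfbp4 had 45.7 CPM (40.5 to 52.9) against 31.9, higher in 4 of 4. Igf2 had 0.527 CPM, on 12 UMIs, against 0.0357, higher in 4 of 4. Among the other members, Igf1r had 117 CPM against 229, Igf2r 33.1 against 42.9, Igfbp5 22.7 against 28.3 and Irs2 20.1 against 26.5, and each was lower than in nuclei in 4 of 4 libraries. Igfbp3 had 51.7 against 54.5 and Igf1 0.150, on 8 UMIs, against 0.509, each above the nuclei in 1 of 4 libraries. The part of this RNA in the class levels of Igfbp2 and Igfbp4 was not tested.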

How the results depend on the processing

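Across the alternatives (DESeq2, no filter on low counts, other normalization and clustering, doublets or shared barcodes kept, and each library left out), 599 values of members that were called in at least 1 fit kept their direction and their side of the threshold, 38 fell short of it, 15 newly passed it and 2 reversed, neither of which was called as reported. Of the counts, 238 stayed within 1.5 times their main value and 23 moved. In saline microglia 2 members were called from E13 to E15, against 1 with shared barcodes kept, 1 with only the 2 groups in the model, and 1 to 3 with a library left out. From E15 to P14 the count was 7, against 4 without E15 saline replicate 1, an alternative chosen after seeing the data (as were the kept shared barcodes and doublets), and 4 to 7 over all libraries left out. In MIA microglia 2 were called from E13 to E15, against 4 with no cluster removed, where Igfbp2 (1.93) and Igfbp3 (2.39) were gained, and 1 to 3 with a library left out. The reversed values were both in this comparison: Igf2r was at 0.252 with no cluster removed, and Igfbp2 at −0.0552 without E15 MIA replicate 1 (1.37 at most with a library left out); the cause was not tested. From E15 to P14 the count was 5, against 2 with only the 2 groups and 2 to 6 with a library left out, 2 without P14 MIA replicate 1 or replicate 2. With the replicate block the counts from E13 to E15 were 3 in saline microglia, with Igfbp2 gained, and 3 in MIA microglia, with Igf2r gained, from E15 to P14 they were 7 and 5, and MIA against saline gave 0 in microglia and in nuclei; it changed no other call. The class with the highest level stayed the same for 7 to 8 of 8 members in nuclei (7 at the coarser clustering), and the highest substate for 10 to 11 of 11 pairs of member and stage. Igfbp3 and Igfbp5 in microglia rest on few UMIs per library. The shares of cells with a UMI were thinned to 2000 UMIs in microglia and 1000 in nuclei and are not compared here.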

Other observations

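Some clusters that received no name, or were merged into a wider class, held the highest Igf1 levels. An unnamed E15 cluster of 427 cells, led by globin genes and Hmox1, the haem-degrading enzyme, had 250 CPM of Igf1 (198 to 334 over 6 libraries). A cluster led by Pf4, Lyve1 and F13a1, genes known from border-associated macrophages, had 213 CPM at E13 (132 to 364 over 6 libraries; 156 cells) and 323 CPM at E15 (250 to 590 over 4 libraries; 60 cells). These clusters were picked out after their values were seen.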
